A study of Mus musculus with 4 samples.

Results

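Histone lysine methyltransferases place methyl groups on lysines of histone tails, and histone lysine demethylases take them off. The genes described here are the autosomal protein-coding genes whose symbols start with Kmt, Kdm, Setd, Nsd, Ehmt, Suv39h, Prdm or Smyd followed by a digit, which are 56 of the 20807 autosomal protein-coding genes in GENCODE M21. The symbol alone chose them, so the set also holds PRDM and SMYD proteins that act as transcription factors or on other proteins. The study profiled N6-methyladenosine (m6A) by meRIP-seq, in which RNA is fragmented, fragments bearing m6A are captured with an antibody, and the captured fragments and the unselected input are sequenced. Per the labels, the material was foetal liver cells enriched for the progenitor marker Kit by magnetic sorting (MACS), from mice on a C57BL/6 strain background. Per the methods, the mice were Ythdf2 controls, which carry a floxed Ythdf2 allele that encodes a functional GFP-YTHDF2 fusion and no active Cre. There was 1 group, with 2 IP replicates (total RNA per the labels) and 2 input replicates (polyA RNA), and no condition to contrast. The data analysed were the MACS2 peak list of each IP replicate.

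In mammalian cells m6A is written co-transcriptionally on adenosines in a short sequence context and is bound by YTH-domain readers, among them YTHDF2, which promotes the decay of the transcripts it binds. The mark is known to be frequent near stop codons and in unusually long internal exons and scarce close to splice junctions. Enzymes of the genes below set or remove the marks of active genes on H3K4 and H3K36 and the repressive marks on H3K9 and H4K20. Kdm6b and Kdm7a remove repressive methylation on H3K27, and several of the genes, such as Kmt2a, are needed for blood stem cells.

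The core of the m6A context is GGAC. The sites below are GGAC followed by A, C or T within 50 nt of the summit (the position of highest enrichment in a peak) in each replicate. They are shown on the sense strand of GENCODE M21 transcripts (build GRCm38), with the 5 motif bases in capitals and 10 bases on either side. The first 10 come from the peak of highest mean fold enrichment in each functional group that had such a shared peak.
Kdm6b, chr11:69404612-69404636, minus strand, exon 11 of 23, coding: tcaacccagtGGACAcggcagaccc
Nsd1, chr13:55213717-55213741, plus strand, exon 2 of 23, coding: attctgaaatGGACCcagaacagcc
Kmt5b, chr19:3814564-3814588, plus strand, exon 13 of 13, coding: ttgaggacaaGGACAggtctgaagg
Ehmt1, chr2:24884361-24884385, minus strand, exon 3 of 27, coding: cagccgttgaGGACTcccaacattc
Prdm9, chr17:15545003-15545027, minus strand, exon 10 of 10, coding: caaatacagaGGACAcagtcaaatc
Prdm11, chr2:92975532-92975556, minus strand, exon 7 of 7, coding: ggcatctgcaGGACCccgggggaag
Smyd4, chr11:75404992-75405016, plus strand, exon 11 of 11, 3′ UTR: agagaggacgGGACCttcccacctg
Kdm1b, chr13:47082962-47082986, plus strand, exon 21 of 21, 3′ UTR: gaacttgtatGGACCtaacgttctg
Kdm4b, chr17:56402474-56402498, plus strand, exon 23 of 23, 3′ UTR: aaatgacaaaGGACTggactgaggg
Kdm5a, chr6:120364355-120364379, plus strand, exon 1 of 28, 5′ UTR: ctgcggtggcGGACTgatttagcag
The remaining 5 show the strongest shared peak in a long internal exon with such a site for 5 of the 6 genes with most summits, and were added after their values were seen.
Kmt2d, chr15:98843988-98844012, minus strand, exon 40 of 55, coding: caaggggctaGGACCttgggacccc
Kmt2a, chr9:44818578-44818602, minus strand, exon 27 of 36, coding: tctgctccggGGACCcagccgtcca
Kmt2c, chr5:25373256-25373280, minus strand, exon 14 of 59, coding: tgctgtcagaGGACTctgaggtggc
Kmt2e, chr5:23497830-23497854, plus strand, exon 22 of 27, coding: cctaggagcaGGACTgaggttaaca
Setd2, chr9:110573925-110573949, plus strand, exon 12 of 21, coding: atggcaaagaGGACCttgatcagtt
A match marks where the motif lies under a peak. At the resolution of meRIP-seq it does not identify the methylated adenosine.

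Most of the genes carried a peak, although fewer carried a strong one. A summit lay in an exon of 42 of the 56 genes in replicate 1 (75%) and of 41 in replicate 2 (73.2%), where 35.5% and 34.5% of all autosomal protein-coding genes did. In both replicates it was 40 genes (71.4%, exact 95% interval 57.8 to 82.7), against 31.9% of all genes. In at least 1 replicate it was 43 genes (76.8%), against 38.1%. Intervals are Clopper-Pearson and cover counting error only. Setd7 had a summit only in replicate 2, Kdm1a and Smyd3 only in replicate 1, and 13 genes had none. Under a minimum fold enrichment of 4 the count in both replicates fell from 40 to 23 of the 56 genes. The share of all genes under that minimum is not given here. Of the summits of the 56 genes, 37.4% and 39.66% in replicates 1 and 2 reached 4-fold, against 52.45% and 55.37% of the summits in all genes.

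These genes are long, with a median of 5614 exonic bp against 2835 bp for all genes, and longer genes more often held a summit. Of the 7 genes below 2500 exonic bp, 3 had a summit in both replicates (42.9%, interval 9.90 to 81.6, all genes of that length 18.8%), and of the 18 genes from 2500 to 5000 bp it was 9 (50%, interval 26 to 74, all genes of that length 38.2%). Those 2 intervals include the share of all genes of the same length. It was 11 of 13 genes from 5000 to 7500 bp (84.6%, interval 54.6 to 98.1, all genes 48.1%) and 9 of 10 from 7500 to 10000 bp (90.0%, interval 55.5 to 99.8, all genes 51.3%). All 8 genes of 10000 bp or more had one in both replicates (lower bound 63.1%, all genes 46.6%). Above 5000 bp each interval lay above the share of all genes of like length. The intervals treat the genes as separate draws, although many belong to the same families. Expression was not measured, so genes with and without reads could not be told apart in either set.

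The genes held 123 summits in replicate 1 and 116 in replicate 2. The number of reads at each summit follows from its deposited fold enrichment and p-value (methods). The median summit in replicate 1 had 92 IP reads and a background of 26 control reads. In replicate 2 the medians were 89.5 and 21.2 reads. The median background under summits of all genes was lower, at 18.2 and 14 control reads. Median fold enrichment of IP over background was 3.62 and 3.59, below the 4.11 and 4.30 of summits in all genes. Fewer than 5 control reads lay under 5 of the 123 summits and 8 of the 116.

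Most peaks were found in both replicates. A peak of the other replicate overlapped 110 of the 123 peaks (89.4%) and 108 of the 116 (93.1%), against 85.2% and 87.5% over all genes. Overlapping peaks formed 100 one-to-one pairs, whose summits lay a median of 13 nt apart. The log2 fold enrichment of a pair differed between replicates with an SD of 0.38. Over all 11524 one-to-one pairs of the 2 peak lists, inside or outside exons of genes, the SD was 0.47. Of the 100 pairs, 99 lay within 2-fold, and the exception was a peak of Prdm11.

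**Figure D1:**
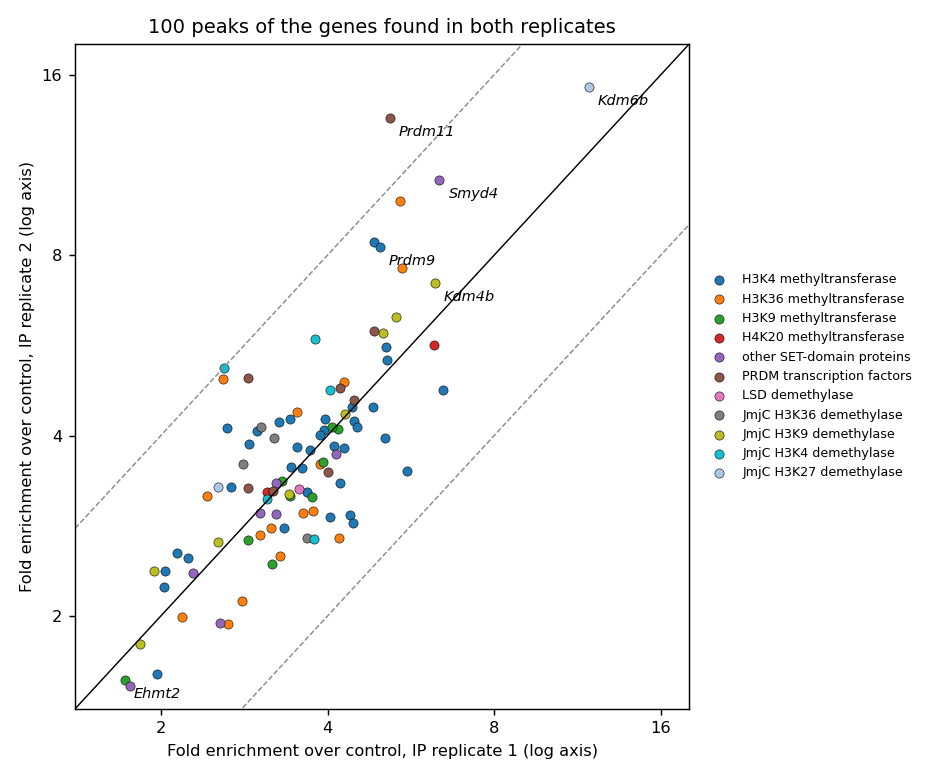
Fold enrichment over control of the 100 one-to-one peak pairs in replicate 1 (x, log axis) and replicate 2 (y, log axis), coloured by functional group, with the line of equality (solid) and 2-fold lines (dashed). The points follow the line of equality from Ehmt2 (1.72 and 1.56) to Kdm6b (11.9 and 15.2), and 1 peak of Prdm11 (5.18 and 13.6) lies beyond 2-fold.

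Many of the genes held several peaks. Of the 40 genes with a summit in both replicates, 15 had 4 or more in replicate 1 and 15 in replicate 2 (37.5% each). The genes were the same except for Kdm2a (4 and 3 summits) and Kdm3b (3 and 4). Over all genes with a summit in both it was 5.43% in replicate 1 and 5.28% in replicate 2. The 40 genes were longer, with a median of 6880 exonic bp against 3735 bp for all such genes. Per exonic kb their median was 0.344 summits, below the 0.415 of all such genes. The 6 genes with most summits, given as replicate 1 and replicate 2, were Kmt2d (10 and 11), Kmt2a (9 and 9), Kmt2c (7 and 6), Kmt2e (6 and 6), Setd2 (6 and 5) and Setd1b (5 and 6). All but Setd2 belong to the Set1/MLL family.

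The Set1/MLL family and other H3K4 methyltransferases held the largest share of the summits, 46 of 123 and 48 of 116. Kmt2d, which deposits H3K4 monomethylation at enhancers, had its strongest peak in exon 35 of 55 (1982 nt), at 4.84-fold (139 IP reads) and 4.47-fold (137 IP reads). In both replicates it also had summits in exons 11, 12, 32, 40 and 49, each of them over 1000 nt, and 1 near the stop codon (2.24- and 2.5-fold). Exon 40 (2952 nt) alone held 3 summits in replicate 1 and 4 in replicate 2. Its weakest peak lay in exon 49 at 1.97- and 1.60-fold, in the same exon as one of 3.72- and 3.79-fold.

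Kmt2a (MLL1) sets H3K4 methylation at developmental genes and is required for definitive haematopoiesis. Its summits lay in 3 exons, namely exon 3 (2651 nt), exon 27 (4237 nt) and the last exon, 36 (4823 nt). The last exon held a summit near the stop codon (3.67- and 3.21-fold) and 2 more in the 3′ UTR, 2067 and 2101 nt past it (4.43- and 4.46-fold) and 2919 and 2921 nt past it (5.07- and 3.97-fold). Exon 3 held 2 summits in replicate 1 and 3 in replicate 2, of which 1 was shared. The unshared peaks of Kmt2a stood at 2.79- to 3.64-fold.

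Kmt2c, the closest relative of Kmt2d, had every placed summit in an internal exon of 704 to 1896 nt and none near the stop codon. The strongest was in exon 52 of 59 (1117 nt), 5.11-fold in replicate 1 and 5.62-fold in replicate 2. Kmt2b, the closest relative of Kmt2a, had 4 summits in each replicate and likewise none near its stop codon. They were 2 in exon 3 (2036 nt, 4.47- and 4.22-fold for the stronger), 1 in exon 6 (280 nt, 3.53- and 3.82-fold) and 1 in exon 28 (1300 nt, 3.27- and 4.21-fold).

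Setd1a and Setd1b are the catalytic subunits of the Set1 complexes, which trimethylate H3K4 at promoters. Setd1b had a summit in both replicates in each of its 4 long internal exons, among them exon 7 (825 nt, 6.46- and 4.76-fold). Setd1a had 4 summits in each replicate, at most 3.95- and 4.27-fold, and 2 of the 4 in each also lay in an exon of the overlapping gene Gm49388, so they cannot be given to either gene without strand. Kmt2e (MLL5) has a SET domain of the family without an established histone methyltransferase activity and acts in blood stem cells. It had a summit in the 5′ UTR, in exon 1, at 4.85-fold (42 IP reads) and 8.41-fold (52 IP reads). Its other shared summits lay in exons 17 (309 nt), 22 (567 nt), 23 (311 nt) and 27, the last exon, at 2.03- to 5.57-fold.

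The remaining H3K4 enzymes had 1 summit or none per replicate. Prdm9, which marks recombination hotspots in meiosis, had 1 summit in its last exon at 4.97- and 8.26-fold. It was supported by 17 IP reads against 3 control reads in replicate 1 and by 25 against 2 in replicate 2, and the exon encodes an array of near-identical zinc fingers. How reads that map to several places were treated is not given in the sources used here. Setd7, which monomethylates H3K4 and other proteins, had 1 summit at its start codon in replicate 2 (8.87-fold) on 12 IP reads over 0.4 control reads.

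All 4 H3K36 methyltransferases carried summits in both replicates, 18 in replicate 1 and 17 in replicate 2. Of all autosomal protein-coding genes 31.9% carried one in both. The 4 genes had a median exonic length of 13790 bp, and of all genes of 10000 bp or more the share was 46.6%. Setd2, the enzyme for H3K36 trimethylation in transcribed gene bodies, had all of its summits in 3 internal exons. Exon 3 (4286 nt) held 4 in replicate 1 and 3 in replicate 2, at 2.80- to 4.92-fold, exon 12 (663 nt) held 1 (4.29- and 4.91-fold) and exon 15 (670 nt) held 1 (3.61- and 2.97-fold). Nsd1, Nsd2 and Nsd3 set H3K36 mono- and dimethylation, and each had 4 summits in each replicate.

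Nsd1 had the strongest of these in exon 2 (947 nt), 5.44-fold on 90 IP reads in replicate 1 and 7.62-fold on 103 in replicate 2, with summits at the same base. It also held 2 summits in exon 5 (2560 nt) and 1 in the last exon, 201 and 173 nt before the stop codon (3.87- and 3.58-fold). Nsd2 had summits in exons 3 (626 nt, 3.76- and 3.0-fold) and 6 (483 nt, 2.18- and 1.99-fold) and near the stop codon (3.02- and 2.73-fold). In Nsd3, exons 2 (749 nt, 2.80- and 2.12-fold) and 6 (516 nt, 3.28- and 2.52-fold) held summits. A 4th summit of Nsd2 and 2 of Nsd3 lay in exons of other isoforms, the strongest near the start of Nsd3 at 5.40- and 9.85-fold on 11 and 30 IP reads.

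The 4 H3K9 methyltransferases also carried summits in both replicates, where 31.9% of all genes did. Their median exonic length was 5150 bp, and of all genes from 5000 to 7500 bp the share was 48.1%. Ehmt1 (GLP) and Ehmt2 (G9a) form a heterodimer for H3K9 mono- and dimethylation. Ehmt1 had a summit in exon 3 (557 nt) at 3.30- and 3.36-fold, with 112 IP reads in each replicate, and one in its last exon at 3.74- and 3.15-fold. Ehmt2 has no internal exon over 257 nt and had only the peak near the stop codon, at 1.72-fold (106 IP and 70 control reads) and 1.56-fold (104 and 63). Its −log10 q was 4.51 and 2.26, so that it was lost under a minimum of 5. Suv39h2, which trimethylates H3K9 in heterochromatin, had its shared peak in exon 3 (660 nt, 3.93- and 3.61-fold). A second shared peak lay in an exon of the overlapping gene Dclre1c.

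Prdm2 (RIZ1) is a PRDM protein with H3K9 methyltransferase activity, and all its summits lay in exon 8, of 4390 nt, the longest internal exon of the set. There were 5 summits in replicate 1 and 4 in replicate 2, the strongest at 4.17- and 4.13-fold. The H4K20 group split. Kmt5b and Kmt5c, which make H4K20 di- and trimethylation, each had 1 peak per replicate in the coding part of the last exon. That of Kmt5b stood at 6.23- and 5.66-fold (114 and 112 IP reads) and that of Kmt5c at 3.11- and 3.22-fold (173 and 166 IP reads). Kmt5a (PR-Set7), which makes H4K20 monomethylation, had no summit in either replicate.

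Among the 9 other SET-domain proteins, 6 had a summit in both replicates (66.7%, all genes 31.9%). Setd5 had a summit in exon 18 (471 nt, 3.23- and 3.33-fold) and one near the stop codon (4.14- and 3.73-fold). Setd3, an actin histidine methyltransferase, had a peak in its last exon at 2.56- and 1.94-fold. Setd6, which methylates the NF-kB subunit RelA, had one near the stop codon at 2.28- and 2.36-fold. Smyd5 had a 3′ UTR peak at 3.22- and 2.96-fold on 161 and 157 IP reads. Smyd4 had the strongest shared peak of the group, past the stop codon, at 6.37-fold (61 over 10 reads) and 10.7-fold (55 over 4 reads).

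Smyd2, which methylates p53 among other proteins, had a peak at 1.76- and 1.53-fold that also lay in an exon of Gm37422. It was lost both under a minimum −log10 q of 5 and when summits in exons of 2 genes were set aside. Smyd3 had a peak in replicate 1 alone, 6.94-fold on 12 IP reads over 1 control read, in an exon outside its transcript of longest coding sequence. Setd4 and the muscle protein Smyd1 had none.

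The 12 PRDM transcription factors were the group with the lowest share of carriers, with 5 in both replicates (41.7%, against 31.9% of all genes) and 7 in neither. Prdm16, a regulator of blood stem cell maintenance, had a 3′ UTR peak at 9.94- and 11.2-fold on 35 and 39 IP reads, with 3 and 2.4 control reads. Prdm11 held 5 and 4 summits, of which 2 in each replicate lay in exons of another isoform. The 3′ UTR part of its last exon held summits at 4.25- and 6.51-fold in replicate 1 and at 8.95-fold in replicate 2. The peak in the coding part of that exon stood at 5.18-fold on 54 IP reads in replicate 1. In replicate 2 it stood at 13.6-fold on 56 IP reads, and the control reads under it were 11 and 3. IP reads at this peak were nearly equal in both replicates and the background was not.

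Prdm15 had summits in the coding part (4.86- and 5.98-fold) and the 3′ UTR (2.87- and 3.27-fold) of its last exon. Prdm4 had one in exon 5 (795 nt, 4.01- and 3.48-fold) and one near the stop codon (3.19- and 3.24-fold). Prdm10 had one, in an exon of another isoform, at 2.87- and 4.98-fold.

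Of the 15 demethylases, 11 had a summit in both replicates, where 31.9% of all genes did. Kdm6b (JMJD3), which removes H3K27 methylation, had the strongest peak of the set. It lay in exon 11 of 23 (2168 nt) at chr11:69404208-69405176, at 11.9-fold in replicate 1 (102 IP and 8.8 control reads) and at 15.2-fold in replicate 2 (105 and 5.62) (mean 13.6, SD 2.40, n = 2). A second peak in the same exon stood at 2.54- and 3.28-fold. Kdm6b had no summit near its stop codon.

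The JmjC demethylases of H3K9 followed. Kdm4b had a single peak in the 3′ UTR, 737 nt past the stop codon in each replicate, at 6.25- and 7.18-fold. Its relative Kdm4a had one near the stop codon at 2.53- and 2.66-fold, and Kdm4c and Kdm4d had none. Kdm3a had a peak in exon 10 (512 nt, 5.32- and 6.30-fold) and one near the stop codon (3.41- and 3.19-fold). Its relative Kdm3b had peaks in exon 7 (600 nt, 1.83- and 1.80-fold), exon 8 (1249 nt, 4.30- and 4.34-fold) and the last exon (1.94- and 2.38-fold for the shared one). Kdm7a, which acts on H3K9 and H3K27, had one past the stop codon at 5.05- and 5.93-fold.

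Kdm5a and Kdm5b remove H3K4 methylation. Kdm5a had 4 summits in each replicate, in the 5′ UTR (3.79- and 5.79-fold), in exon 23 (552 nt, 3.77- and 2.68-fold), in exon 27 (411 nt, 2.60- and 5.18-fold) and at the stop codon (3.10- and 3.14-fold). Kdm5b had 1 shared peak, at the stop codon (4.05- and 4.76-fold). Its other summits were in 1 replicate only, and that at the start codon in replicate 2 rested on 8 IP reads.

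Kdm2a and Kdm2b remove H3K36 dimethylation, and Kdm2b also brings a Polycomb complex to CpG islands. Kdm2a had 3 shared peaks, in exon 12 (395 nt, 2.81- and 3.59-fold), exon 17 (710 nt, 3.03- and 4.13-fold) and at the stop codon (3.20- and 3.96-fold). Kdm2b had 1, near the stop codon, at 3.68- and 2.69-fold. Kdm8 had none. Of the flavin-dependent demethylases, Kdm1b (LSD2) had a peak at the stop codon at 3.56- and 3.26-fold on 45 and 47 IP reads, while Kdm1a (LSD1), which represses with CoREST in blood cells, had one at the stop codon in replicate 1 alone, at 1.88-fold on 126 IP reads over 76 control reads.

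The 13 genes with no summit in an exon in either replicate included Kmt5a, Setd4, Smyd1, Kdm4c, Kdm4d, Kdm8, Prdm1, Prdm6, Prdm8, Prdm12, Prdm13 and Prdm14. Their median exonic length was 2695 bp, against 6880 bp for the 40 genes with a summit in both. Several are known from tissues other than blood, such as Prdm12 and Prdm13 from neurons, Prdm14 from germ cells and Smyd1 from muscle. Peak lists do not show whether a gene without a peak lacked m6A or lacked reads, and its expression was not measured here.

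Along the transcript, the summits of these genes lay mostly inside the coding sequence. Of the summits, 111 and 106 could be placed on the transcript with the longest coding sequence. Within 200 nt of the stop codon lay 17.1% (19 of 111, exact interval 10.6 to 25.4) and 17.9% (19 of 106, 11.2 to 26.6), against 30.9% and 29.9% over all genes. In the coding sequence outside the windows of 200 nt around either codon lay 70.3% (60.9 to 78.6) and 69.8% (60.1 to 78.3), against 34.0% and 33.9%. Within 200 nt of the start codon lay 1 and 2 summits (0.901% and 1.89%), against 14.5% and 15.1%. In the 3′ UTR beyond the stop codon window lay 9.01% and 8.49%, against 17.2% and 17.6%. The intervals for shares of summits, here and below, treat summits as separate draws. Many summits lie in the same gene, such as 10 and 11 in Kmt2d.

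**Figure D2:**
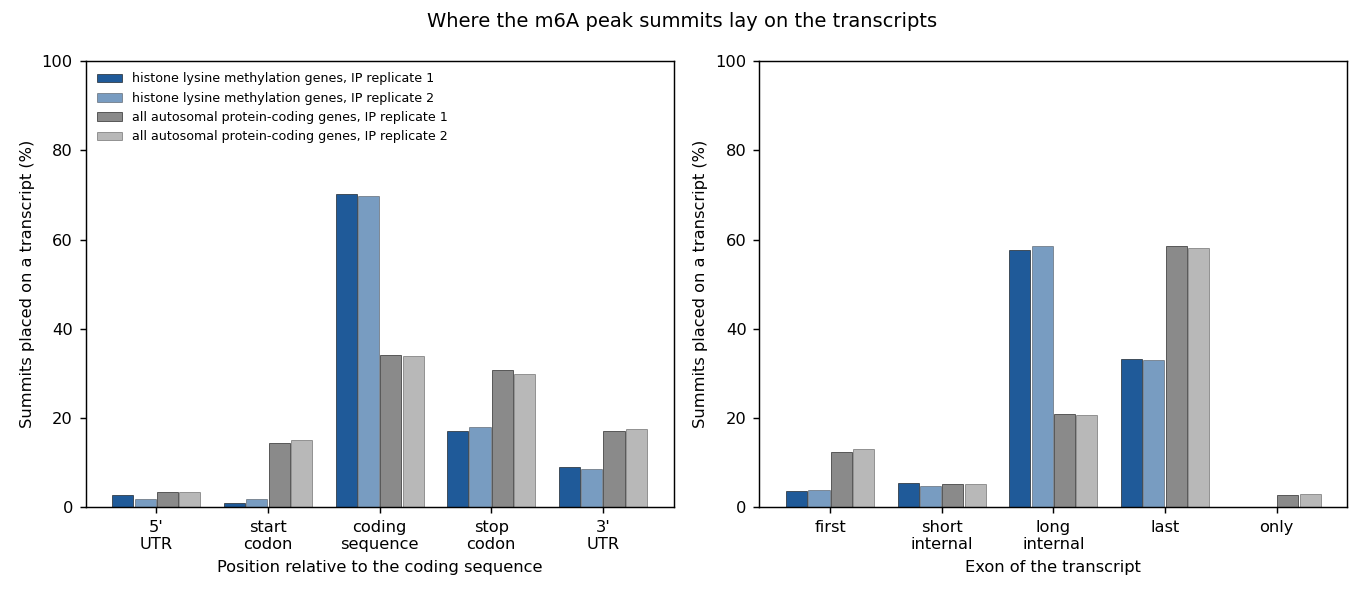
Share of placed summits (y, %) by position relative to the coding sequence (left; codon classes reach 200 nt on either side) and by exon (right; long internal exons have at least 400 nt), for the 56 genes (blue) and all autosomal protein-coding genes (grey), replicate 1 dark and replicate 2 pale. The 56 genes peak in the coding sequence (70.3% and 69.8%) and in long internal exons (57.7% and 58.5%), and all genes peak in the last exon (58.6% and 58.1%).

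Counted by gene rather than by summit, the share at the stop codon was close to that of all genes. Of the 38 genes with placed summits in both replicates, 17 had one within 200 nt of the stop codon in both (44.7%), against 42.4% of all such genes. A summit in the coding sequence outside the windows was held by 28 of the 38 (73.7%), against 36.6% of all, and 1 in a long internal exon by 22 (57.9%), against 23.6%.

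Long internal exons (400 nt or more) accounted for 64 of the 111 placed summits in replicate 1 (57.7%, interval 47.9 to 67.0) and 62 of 106 in replicate 2 (58.5%, 48.5 to 68.0). Over all genes they held 20.9% and 20.8%. Such exons made up 22.6% of the spliced sequence of the members with a summit in both replicates and 9.10% of that of all genes with one. The share did not rest on 1 gene. Leaving out each gene in turn gave 54.6% (without Kmt2d) to 60.5% (without Kmt2e) for the mean of both replicates. The placed summits in these exons were unevenly spread over the genes. Kmt2d held 9 and 10 of them, Kmt2c 7 and 6, Kmt2a 6 and 6, Setd2 6 and 5, Setd1b 5 and 5, and Prdm2 5 and 4. Every other gene held fewer.

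Exon by exon, most long internal exons of these genes held a summit. Of 49 in the genes with a summit in both replicates, 45 held a summit in both (91.8%), against 72.5% of the 2393 such exons of all genes. By length, it was 22 of 25 exons from 400 to 1000 nt (88.0%, all genes 66.4%) and 23 of 24 exons of 1000 nt or more (95.8%, all genes 87.8%). The 45 include exons 8 and 14 of Setd1a, whose summits also lie in Gm49388. Counting only summits in exons of a single gene, it was 43 of 49 (87.8%, all genes 69.7%), with 21 of the 25 shorter exons (84.0%, all genes 64.2%) and 22 of the 24 longer ones (91.7%, all genes 83.2%). The 4 with no summit in both were exon 9 of Prdm16 (1417 nt), exons 11 and 19 of Kdm2b (485 and 680 nt) and exon 23 of Kdm5b (486 nt). These 4 held 9, 5, 2 and 2 GGAC sites followed by A, C or T.

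Short internal exons of the same 40 genes were nearly empty, as were those of all genes with a summit in both replicates. Of 105 internal exons from 200 to 400 nt, 4 held a summit in both replicates (3.81%, all genes 4.47%). They were exon 12 of Kdm2a, exon 6 of Kmt2b and exons 17 and 23 of Kmt2e. Of 626 internal exons below 200 nt, 0 did, which allows a share of up to 0.479% (all genes 0.142%). The shortest internal exon with a summit in either replicate was exon 8 of Setd1b, of 262 nt.

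**Figure D3:**
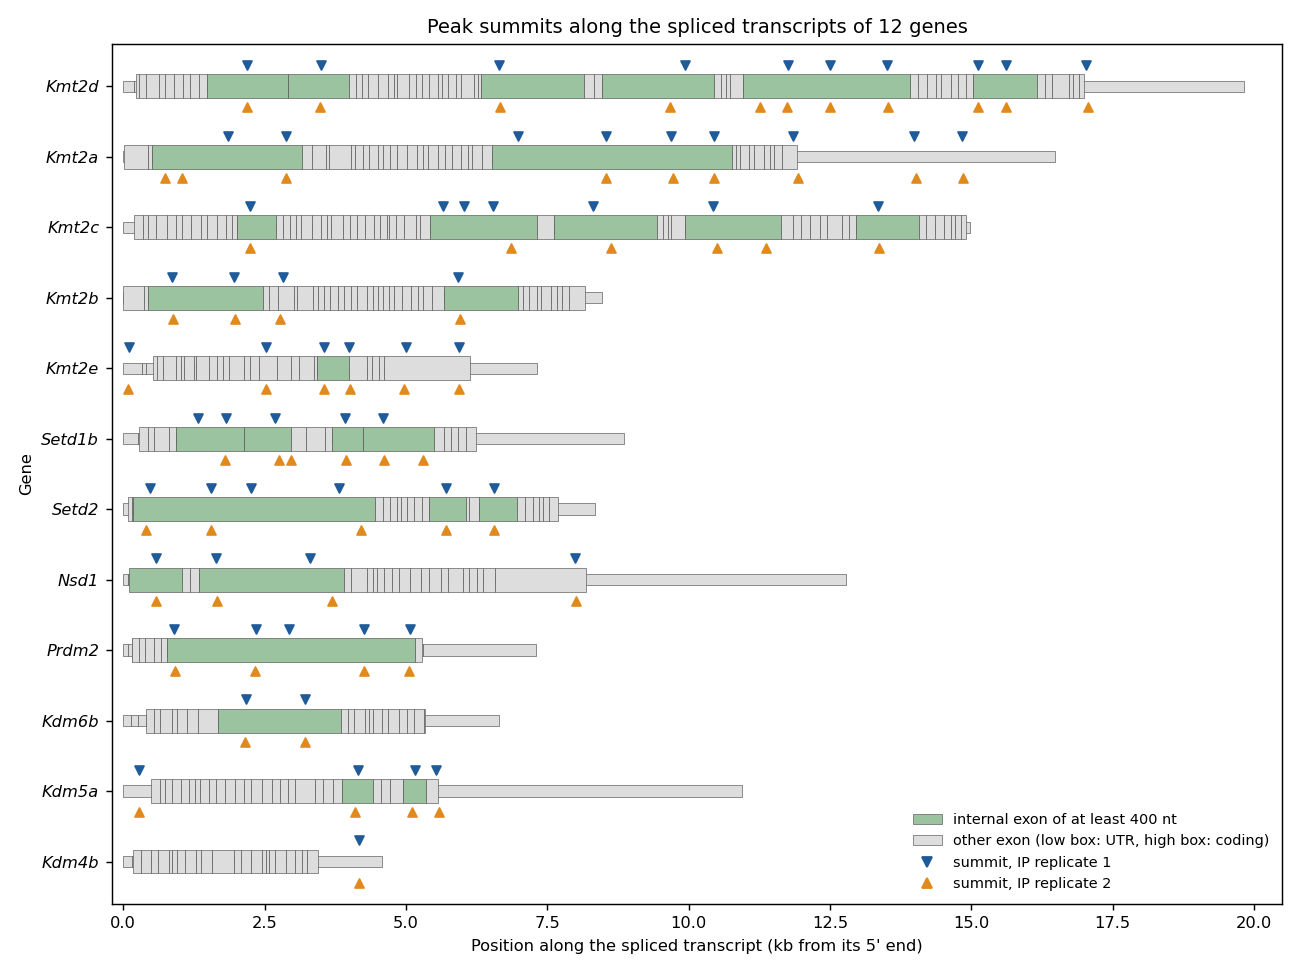
Spliced transcripts of 12 of the genes (y), drawn to scale from the 5′ end (x, kb), with coding sequence as high boxes, UTRs as low boxes, exon borders as lines and internal exons of at least 400 nt in green. Triangles mark summits in replicate 1 (above) and replicate 2 (below), and in Kmt2d, Kmt2c, Setd2 and Prdm2 nearly all of them stand over green exons.

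The motif was tallied both at the summits and across the transcripts. GGAC lay within 50 nt of 67.6% of placed summits in replicate 1 (75 of 111, interval 58.0 to 76.2) and of 70.8% in replicate 2 (75 of 106, 61.1 to 79.2), against 56.6% and 56.5% over all genes. Over every position of the same members' transcripts the share was 35.1%, and it was 33.7% over all genes with a peak. DRACH is the wider context, in which D stands for any base but C, R for a purine and H for any base but G, and it includes the GGAC sites above. It lay near 97.3% and 98.1% of summits, and near 87.0% of all positions. The motifs were read on the sense strand only.

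The density of the motif differed less between the exon classes of the 56 genes than the share of motif sites under peaks did. GGAC followed by A, C or T occurred 4.36 times per kb in long internal exons and 4.08 in short internal exons. It occurred 3.75 times per kb in first exons and 3.18 in last exons. A summit lay within 50 nt in both replicates for 44 of 290 sites in long internal exons (15.2%), 26 of 435 in last exons (5.98%) and 2 of 492 in short internal exons (0.407%). Over all genes, carriers or not, the shares were 6.08%, 3.29% and 0.222%, in the same order, and fewer of all genes than of the 56 are carriers. Among genes with a summit in both replicates, the members stood higher in long internal exons alone (15.9%, all genes 10.9%), while their shares were 7.54% against 7.63% in last exons and 0.459% against 0.621% in short internal exons. With only summits in exons of a single gene, the long internal shares were 15.6% and 10.4%. Inside the long internal exons of the 56 genes, it was 44 of 239 sites over 100 nt from both junctions (18.4%, all genes 7.45%). Of the 51 sites nearer to one it was 0, which allows up to 5.88% and so does not set them apart from the 1.32% of all genes. Among genes with a summit in both replicates, the members had 44 of 231 sites over 100 nt from both junctions (19.05%, all such genes 13.16%). Of their 45 nearer sites it was 0, which allows up to 6.67% (all such genes 2.54%).

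**Figure D4:**
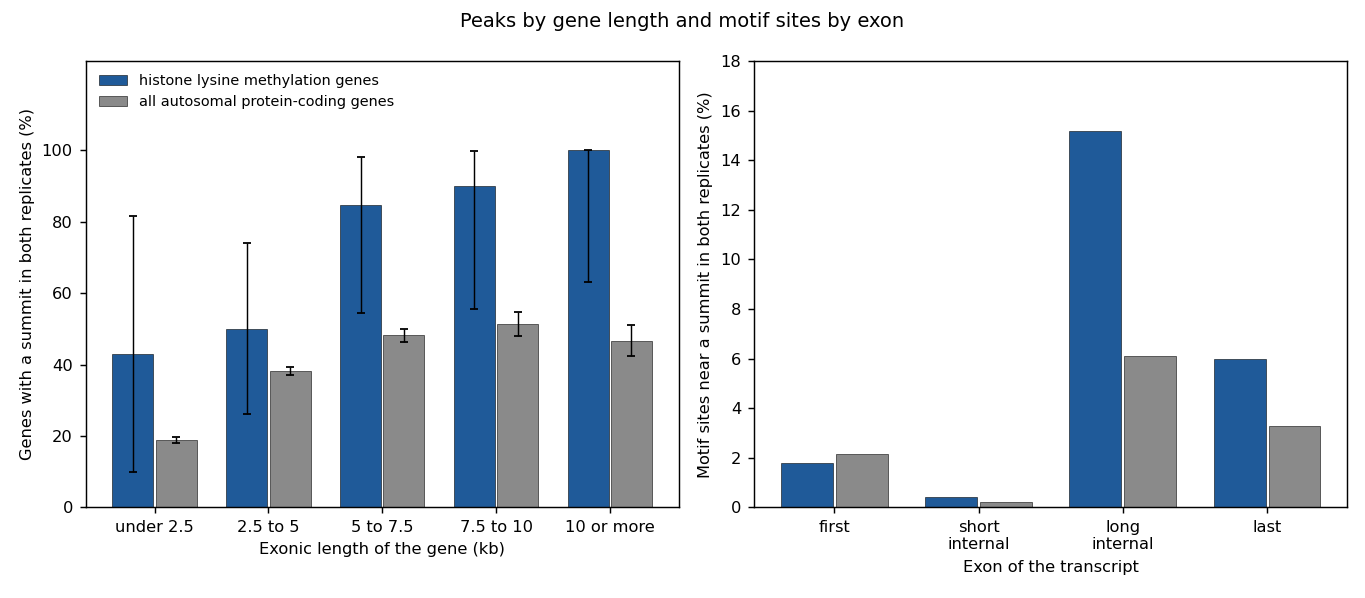
Left, share of genes with a summit in both replicates (y, %) by exonic length (x, kb) with exact 95% intervals, for the 56 genes (blue) and all genes (grey), and right, share of GGAC sites followed by A, C or T that had a summit within 50 nt in both replicates (y, %) by exon class (x). The share is 100% in the 8 longest members, and motif sites in long internal exons (15.2%) exceed those in last exons (5.98%) and short internal exons (0.407%).

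Median fold enrichment was 3.74 and 3.63 for member summits in long internal exons and 3.19 and 3.19 near the stop codon, where the median background was higher (46 and 36 control reads, against 28.4 and 21.6). The 10 and 9 summits in the 3′ UTR had medians of 4.34 and 3.97. Under a minimum fold of 4 the stop codon share was 9.76% and 7.5%, and GGAC lay near 82.9% and 87.5% of the summits left.

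The enzymes that the symbol rule leaves out were described in the same way. Of 17 lysine methyltransferases and demethylases with other symbols or on the sex chromosomes, 10 had a summit in both replicates (58.8%, all autosomal genes 31.9%). Ash1l, an H3K36 methyltransferase, had 6 and 7 summits, up to 6.79- and 7.52-fold, and the H3K79 methyltransferase Dot1l had 2 and 2. Neither H3K27 methyltransferase of Polycomb complex PRC2, Ezh1 or Ezh2, had any, nor did Mecom, Hr, Kdm5d or Uty, and Phf8 had one in replicate 1 only. The H3K27 demethylase Kdm6a had 3 and 2 summits.

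Partner subunits had peaks as well. Of 13 subunits of the Set1 and MLL complexes, 11 had a summit in both replicates (84.6%, all autosomal genes 31.9%). Fold enrichment reached 16.4 and 14.3 in Ash2l and 9.79 and 7.03 in Men1, which tethers MLL1. Bod1l held 7 and 9 summits. Cxxc1 had none and Wdr5 had one in replicate 1 only. Of 9 co-repressor partners of Kdm1a, 6 had a summit in both (66.7%), among them Gfi1 (up to 5.07- and 5.03-fold) and Gfi1b. Hdac1, Hdac2 and Rcor2 had none. In other families of histone modifiers, a summit in both replicates was found in 7 of 10 acetyltransferases, 6 of 9 arginine methyltransferases and 6 of 18 deacetylases and sirtuins. These are 70%, 66.7% and 33.3%, the last near the 31.9% of all autosomal genes. Their median exonic lengths were 4140, 2724 and 2580 bp.

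The labelled cell type could be checked against peaks only in part. Of 8 markers of stem and progenitor cells, 6 had a summit in both replicates (Cd34, Gata2, Runx1, Tal1, Lmo2 and Meis1), and Kit, the marker used for enrichment, and Myb had none. Of 4 erythroid markers it was 2 (Klf1 and Epor, with Gata1 at none). Markers of other liver cells also had peaks, in both replicates 2 of 5 for hepatocytes (Apoa1 and Hnf4a, with Alb and Ttr at none), 2 of 4 for macrophages and 1 of 3 for endothelium. The shares were 75% for stem and progenitor, 50% for erythroid, 40% for hepatocyte, 50% for macrophage and 33.3% for endothelial markers. Of all autosomal protein-coding genes 31.9% had a summit in both replicates, and each list is short. The hepatocyte peaks rested on a median of 3.2 and 5.3 control reads and the endothelial one on 2 and 0.8, against 34.5 and 14 for the stem and progenitor markers and 18.1 and 16.4 for the macrophage peaks. How far other cells add to the peaks of the 56 genes was not tested.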

How the data were processed

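Per the methods, reads of each replicate were aligned to GRCm38 with HISAT2 and peaks were called with MACS2 (2.1.1.20160309, nomodel). The control library, threshold and genome size are not given in the sources used here. In the deposited lists, 1 per IP replicate, the authors give each peak's fold enrichment (a ratio of IP to local background), −log10 p-value and −log10 q-value at the summit, a whole-number score and the summit's offset.

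From these, IP and control reads at each summit were recovered through the MACS2 formulas (fold = (IP + 1)/(background + 1) on scaled counts, Poisson tail). They matched 100% of peaks within 0.01 in −log10 p. The scaling took 1 control read as 0.874 in replicate 1 and multiplied IP reads by 0.952 in replicate 2. The reads given here are before scaling, so they do not return the fold directly. The step was tested on simulated data. Library totals are unknown, and read-level data were not analysed here.

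Summits were assigned to exons of the GENCODE M21 basic set and placed on the transcript with the longest coding sequence, when in no exon of another gene. The stop codon window took precedence. Shared peaks overlapped by at least 1 bp. Replicates are separate samples, described as biological in the methods. All results are descriptions, without a test, since there is 1 group.

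The genes, lists and rules were chosen with earlier results of these data known. Genes picked for detail by rule were the 6 with most summits, the 6 strongest shared peaks with at least 5 control reads in each replicate, genes with a summit in 1 replicate and 13 known for their roles, and peaks of most other genes are given more briefly. Some items are not reported here. Alternatives changed the peak threshold, the exon rule, the windows, the transcript and the overlap. Python 3.11.15, pandas 2.3.3, numpy 2.4.6, scipy 1.17.1 and matplotlib 3.10.9 were used.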

Additional observations from a re-analysis of the deposited data

Results flagged for a closer look

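Summits in introns of the 56 genes, outside every exon of the basic annotation, were used in no count above. There were 8 in replicate 1, in 6 genes, and 11 in replicate 2, in 9 genes. They were singled out because peaks appeared in sequence that the comparisons do not use, in more than the 3 counts that a count of 0 allows. Of these, 7 in each replicate overlapped a peak of the other replicate, and 1 in each was exonic under the comprehensive annotation. Their median fold enrichment was 6.28 and 7.15, on a median of 28.5 and 26 IP reads over 4.9 and 4.2 control reads. The strongest by reads was in intron 8 of Prdm2, at chr4:143128583-143129127 in replicate 1, with 6.41-fold on 67 IP reads and, in replicate 2, 9.20-fold on 84 IP reads. Intron 1 of Smyd5 held one at 8.01- and 9.37-fold, on 49 and 58 IP reads. Setd4, which had no summit in an exon, had 2 in introns 4 and 7 in each replicate. The peak lists carry no strand, and the source of these reads was not tested.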

How the results depend on the processing

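The count of 40 genes with a summit in both replicates was 41 under any overlap of peak and exon (adding Kdm8) or the comprehensive annotation (adding Setd4), 39 without summits that also lie in an exon of another gene, 38 under a minimum −log10 q of 5 and 23 under a minimum fold enrichment of 4. A stricter minimum cannot raise the count, and the counts over all genes under these alternatives are not given here. Shares below are means of both replicates in percent. With the minimum fold of 4, the stop codon share moved from 17.5 to 8.63, the long internal exon share from 58.1 to 60.5, the coding share from 70.0 to 71.6, the GGAC share from 69.2 to 85.2 and the overlap from 91.3 to 66.3. The minimum −log10 q of 5 gave 58.9 for long internal exons, 71.0 for the coding sequence and a median fold of 3.68 (main 3.60), and leaving out summits shared with another gene gave 3.64. The longest spliced transcript gave 16.9 for the stop codon, 56.6 for long internal exons and 69.4 for the coding sequence. Codon windows of 400 nt gave 23.5 and 62.2, and an exon limit of 200 nt gave 63.1. Windows of 25 and 100 nt gave 43.3 and 83.0 for GGAC and 85.3 and 100 for DRACH. Reciprocal overlap of 50% and summits within 100 bp both gave 81.2. By construction a wider motif or stop codon window or a lower exon limit cannot lower its share, nor a stricter overlap raise it, and the cause of the other shifts was not tested. Replicate 1 alone gave 42 genes and replicate 2 alone gave 41. The other values of each replicate, with the overlap added after seeing the data, stand in the report. No paired analysis was possible because the result comes from no test between groups. Library totals are unknown, 1 group of 2 libraries was described, and peaks without strand cannot be given to 1 of 2 overlapping genes.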
